A study of Mus musculus with 4 samples.

Results

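The 10 miRNAs described here are guide arms, the strands that an miRNA precursor mainly delivers to the silencing complex, of miR-128, miR-135a, miR-135b, miR-137, miR-138, miR-153, miR-218, miR-383, miR-488 and miR-873a. They were chosen by name, as miRNAs enriched in neurons outside the best-known neuronal families, and all 10 are among the 1167 miRNAs of the authors' deposited table. The tissue sequenced for small RNA was main olfactory epithelium, in which olfactory sensory neurons, supporting cells and glands line the back of the nose. The samples came from male C57BL/6 mice 3 months of age, 2 labelled wild type and 2 labelled AC3-/-, with no further treatment named. AC3 is adenylyl cyclase 3, which turns the activation of an odorant receptor into a rise of cAMP in olfactory sensory neurons, and AC3-/- denotes mice without it. Whether the 2 samples of each genotype are separate mice is not stated in the labels, and p-values therefore reflect a spread between libraries that may be technical.

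An miRNA guides the silencing complex to mRNAs that pair with its seed, bases 2 to 8 from its 5′ end, and lowers their translation and stability. Of the miRNAs here, miR-128 is known to restrain neuronal excitability, miR-137 acts in neurogenesis and synapse formation, and miR-138 limits the size of dendritic spines. miR-153 is known to target synaptic proteins, and miR-218 is most prominent in motor neurons and is made from introns of the axon guidance genes Slit2 and Slit3. The main olfactory epithelium keeps making neurons throughout life, so its RNA holds progenitors and immature neurons beside mature ones. In such a bulk sample, fewer cells of a type and less RNA per cell cannot be told apart.

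The mature sequences are shown because the seed decides which mRNAs a member can pair with, and because several members are made from more than 1 gene. RefSeq sequences on GRCm38.p6 matched 8 of the 10 by name. mmu-miR-135b-5p and mmu-miR-383-5p are given by name only. Each is written 5′ to 3′ with the seed in capitals:
mmu-miR-218-5p: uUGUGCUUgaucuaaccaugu
mmu-miR-128-3p: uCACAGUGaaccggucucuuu
mmu-miR-488-3p: uUGAAAGGcuguuucuugguc
mmu-miR-138-5p: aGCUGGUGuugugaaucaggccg
mmu-miR-135a-5p: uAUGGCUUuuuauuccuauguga
mmu-miR-153-3p: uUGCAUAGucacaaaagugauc
mmu-miR-137-3p: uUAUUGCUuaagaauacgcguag
mmu-miR-873a-5p: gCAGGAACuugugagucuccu

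These 8 miRNAs carry 8 different seeds, so no shared seed groups these 8. The members given by name only, miR-135b and miR-383, were not compared by seed. A seed shared by miR-135a and miR-135b, known members of 1 family, was therefore not checked and is not excluded. Among the miRNAs with a sequence, the closest seed relatives at a high level are the miR-27 pair. It holds the seed letters of miR-128-3p 1 base further on, at bases 3 to 9. They are shown to make that shift visible:
miR-27b-3p: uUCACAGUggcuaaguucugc
miR-27a-3p: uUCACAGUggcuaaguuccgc
In the authors' deposited table the AC3-/- and wild-type means were 124723 and 142627 for miR-27b-3p and 12399 and 13201 for miR-27a-3p, each well above miR-128-3p. miR-448-3p shares bases 2 to 7 with miR-153-3p and averaged 3.11 and 2.23 there.

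miR-128-3p, miR-138-5p, miR-135a-5p and miR-218-5p are each made from 2 genes whose guide arms are identical, so their values do not tell the genes apart. Of the mature arms, only the other arm of the precursor, usually degraded, differs between the 2 genes. The other arms of 3 such pairs are shown because their reads are the part of the data that points to 1 gene:
miR-128-1-5p: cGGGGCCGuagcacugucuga
miR-128-2-5p: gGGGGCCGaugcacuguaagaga
miR-138-1-3p: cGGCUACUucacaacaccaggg
miR-138-2-3p: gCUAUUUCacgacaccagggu
miR-135a-1-3p: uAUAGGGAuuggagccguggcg
miR-135a-2-3p: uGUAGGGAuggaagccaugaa

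The genes lie mostly within other genes on the same strand (GRCm38, GENCODE annotation). Mir128-1 (chr1:128202361-128202430, plus strand) lies in an intron of R3hdm1 and Mir128-2 (chr9:112118636-112118711, minus strand) in an intron of Arpp21. Mir218-1 (chr5:48223942-48224051, plus) and Mir218-2 (chr11:35616816-35616925, plus) lie in introns of Slit2 and Slit3. Mir488 (chr1:158505625-158505733, plus) lies in an intron of Astn1, which encodes a neuronal adhesion protein that young neurons use to migrate along glia. Mir153 (chr12:117250817-117250885, plus) lies in an intron of Ptprn2, a protein of secretory vesicles, and Mir873a (chr4:36668510-36668586, minus) in an intron of Lingo2. Mir135a-2 (chr10:92072086-92072185, minus) lies in an intron of the noncoding gene Rmst, Mir135a-1 (chr9:106154124-106154213, plus) in an intron of the noncoding D030055H07Rik, and Mir135b (chr1:132198088-132198184, plus) in an intron of Lemd1. Mir137 (chr3:118433857-118433929, plus), Mir138-1 (chr9:122682876-122682974, plus) and Mir138-2 (chr8:94324311-94324381, plus) lie in exons of the noncoding genes Gm26871, Gm47135 and C78859. Mir383 is given by name only.

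The authors' deposited table gives 1 mean normalised read count per genotype, and the values of the 2 libraries behind each mean were worked back from it, as whole reads, for all 10 members. Library letters a and b only name these libraries: they carry no replicate number and pair nothing between genotypes. The reads of the 2 libraries together came to between 19245869 and 20015622 in AC3-/- and between 21182051 and 23079370 in wild type. The wild-type libraries stood further apart than the AC3-/- ones. The log2 ratio of the 2 libraries of a genotype had an SD of 1.11 in wild type and 0.57 in AC3-/-, over the 448 miRNAs that had library values and averaged 10 or more normalised reads. Adcy3, the gene of AC3, has an mRNA that such libraries do not measure, and no check of the genotype was possible from these data.

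The members spanned more than 3 orders of magnitude, from the most to the least abundant. miR-218-5p was the most abundant and ranked 50 of 1167 by the AC3-/- mean and 53 by the wild-type mean in the authors' deposited table. miR-128-3p ranked 87 and 93 and miR-135b-5p 99 and 122. miR-488-3p, at 187 and 151, and miR-138-5p, at 240 and 200, ranked higher in wild type, while miR-135a-5p was at 215 and 237. miR-153-3p and miR-137-3p ranked between 332 and 424, and miR-383-5p and miR-873a-5p between 544 and 665. Levels of different miRNAs are only roughly comparable, since ligation and PCR favour some sequences.

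**Figure D1:**
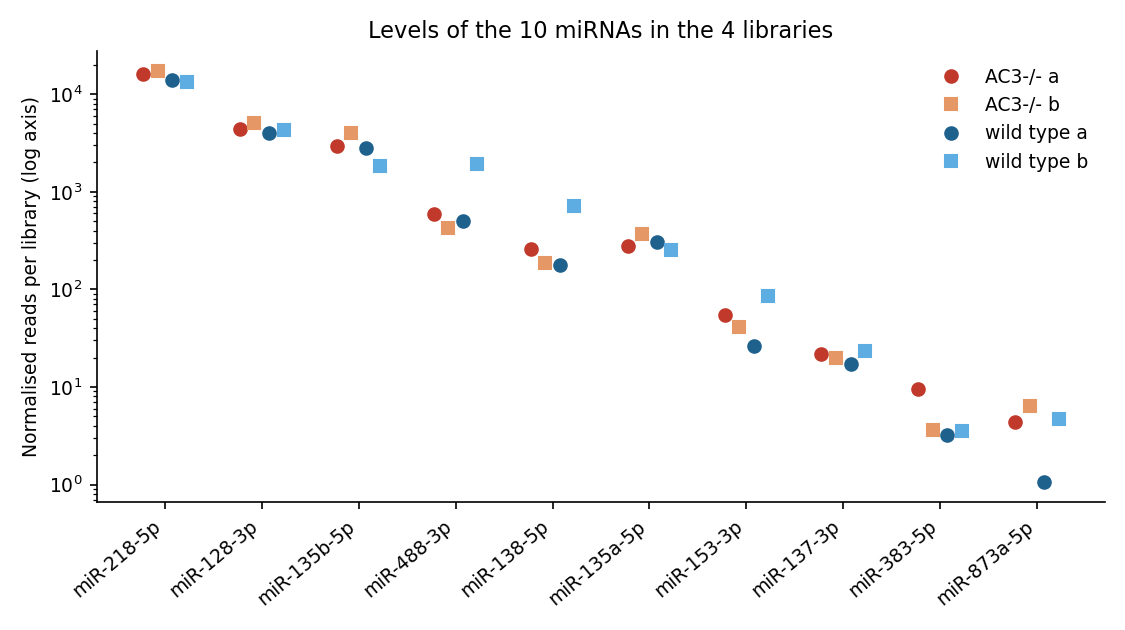
Normalised reads (log axis) of each of the 10 miRNAs in the 4 libraries, 1 point per library, from the highest mean to the lowest. The 4 points lie close together for miR-218-5p and miR-128-3p, while wild-type library b lies above the other 3 for miR-488-3p, miR-138-5p and miR-153-3p.

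In that order, some neighbours did not differ beyond the spread over the 4 libraries. miR-218-5p stood clear of miR-128-3p, with a lowest library of 13273 normalised reads against a highest of 5037. The ranges of miR-128-3p and miR-135b-5p, of miR-135b-5p and miR-488-3p, of miR-488-3p and miR-138-5p, and of miR-138-5p and miR-135a-5p overlapped. miR-138-5p was above miR-135a-5p in 1 of 4 libraries, wild-type library b. miR-135a-5p, miR-153-3p, miR-137-3p and miR-383-5p followed each other without overlap, and miR-383-5p and miR-873a-5p overlapped.

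No member passed an adjusted p of 0.05 between the genotypes in the authors' deposited table, where 0.0857% of all 1167 miRNAs did. Also, 0 of 10 reached an unadjusted p of 0.05 there, against 3.51% of all miRNAs, and the smallest, for miR-488-3p, was 0.0923. The deposited log2 fold changes, which are shrunken toward 0, were above 0 for 7 members and below 0 for 3, miR-488-3p, miR-138-5p and miR-153-3p, while 49.5% of all miRNAs were above 0. Their median was 0.18, against -0.01 over all 1167. limma, fitted to the library values of 448 miRNAs, tested the 8 members with a mean of at least 10. It called 0 of 8 and 0% of all at an adjusted p of 0.05, and 0 of 8 and 3.57% of all at an unadjusted p of 0.05. The smallest unadjusted p from limma among the members was 0.136, for miR-135b-5p.

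For 3 of the 8, miR-218-5p, miR-128-3p and miR-135b-5p, both AC3-/- libraries lay above both wild-type libraries, as they did in 16.7% of the 448 miRNAs. For 0 of 8 both lay below, as in 17% of the 448. With 2 libraries on each side the smallest two-sided p of an exact permutation test is 0.333, so the separation of single members has no test of its own.

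**Figure D2:**
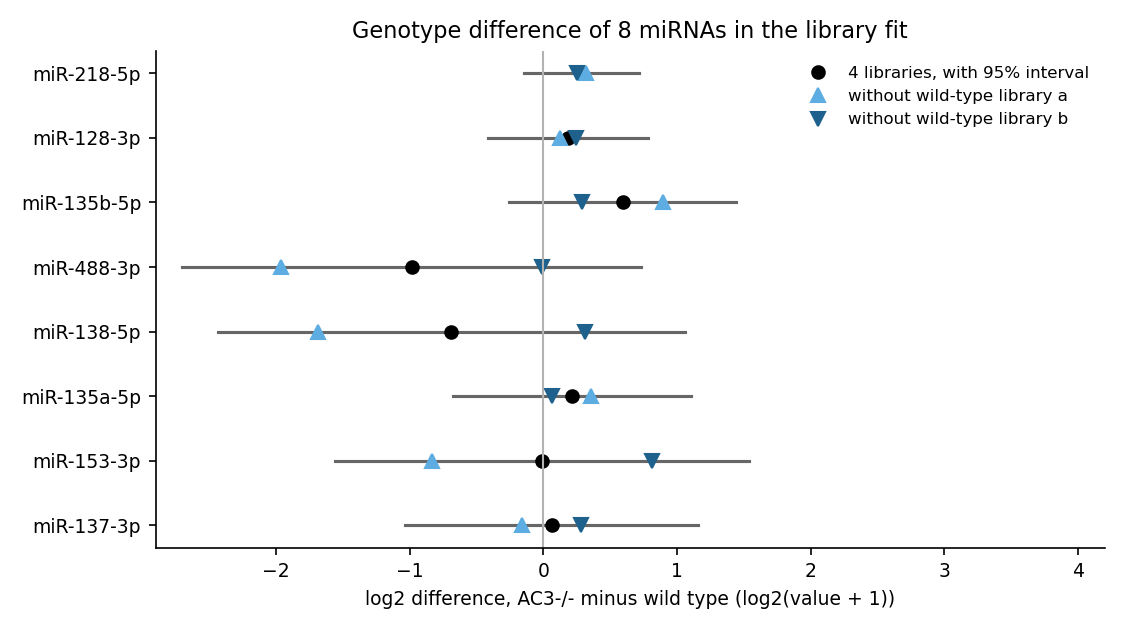
log2 difference of AC3-/- minus wild type, on log2(value + 1), for the 8 miRNAs with a mean of at least 10. Black points and bars give limma's estimate and 95% interval with all 4 libraries, and triangles the estimate without wild-type library a or b. All 8 intervals cross 0, and the triangles of miR-488-3p, miR-138-5p and miR-153-3p lie far apart.

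miR-218-5p and miR-128-3p had the smallest ratios between the 2 wild-type libraries. Normalised reads of miR-218-5p were 15933 (library a) and 17164 (library b) in AC3-/-, against 13905 (a) and 13273 (b) in wild type (18290, 18856, 13086 and 11350 reads). The 2 genotypes did not overlap, and the libraries of a genotype lay within 1.08-fold of each other. By limma the difference was 0.28 on the log2 scale (standard error 0.17), with a 95% interval of -0.15 to 0.72 and an adjusted p of 0.932. With each library left out in turn the difference lay between 0.23 and 0.34.

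miR-128-3p had 4378 and 5037 normalised reads in AC3-/- and 3961 and 4310 in wild type. The AC3-/- libraries lay just above the wild-type ones, and the gap between 4378 and 4310 was smaller than the spread within each genotype. The limma estimate was 0.18 on the log2 scale, with a 95% interval of -0.42 to 0.79 and an adjusted p of 0.932. It lay between 0.083 (without AC3-/- library b) and 0.29 (without AC3-/- library a) with 1 library left out. The other arms bore on which gene the reads came from. miR-128-1-5p, from Mir128-1, had 15, 11, 17 and 16 reads in AC3-/- a and b and wild-type a and b, and miR-128-2-5p, from Mir128-2, had 2, 5, 7 and 0. The Mir128-1 arm was therefore the higher of the 2 in every library, with the caution that arms of different sequence are captured with different efficiency.

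miR-135b-5p and miR-135a-5p, known members of 1 family from different chromosomes, both lay lowest in wild-type library b. miR-135b-5p had 2957 and 4024 normalised reads in AC3-/- and 2819 and 1855 in wild type, with the wild-type libraries 1.52-fold apart and the AC3-/- libraries 1.36-fold apart. Its genotypes did not overlap, but wild-type library a lay close to AC3-/- library a. By limma the difference was 0.59 on the log2 scale (standard error 0.34), with a 95% interval of -0.26 to 1.44 and an adjusted p of 0.932. Without wild-type library b the difference fell to 0.29. Without wild-type library a it was 0.89 with an adjusted p of 0.0296 from limma, where the single wild-type library is taken to have the spread of the AC3-/- pair. In that fit 14.9% of all 449 miRNAs passed.

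miR-135a-5p, the scarcer of the pair, had 278 and 370.5 normalised reads in AC3-/- and 306 and 250.3 in wild type. The genotypes overlapped, and AC3-/- library b was the highest for both family members. The limma estimate was 0.21 on the log2 scale, with a 95% interval of -0.68 to 1.10 and an adjusted p of 0.932. It was 0.0060 without AC3-/- library b and 0.068 without wild-type library b, and 0.42 and 0.36 without library a of AC3-/- and of wild type, so its size rested on single libraries. Of its 2 genes, Mir135a-2 left 19, 31, 22 and 28 reads of its other arm in AC3-/- a and b and wild-type a and b, and Mir135a-1 left 0, 1, 0 and 0. After normalisation miR-135a-2-3p was highest in wild-type library b, at 32.7 against 16.6 to 28.2 in the others, where its guide arm was lowest.

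miR-488-3p, the intronic miRNA of Astn1, had the largest fold difference between the deposited means of the members averaging at least 10 normalised reads, and this rested on wild-type library b. It had 585.4 and 421.4 normalised reads in AC3-/- and 499.4 and 1940 in wild type (672, 463, 470 and 1659 reads). Wild-type library a lay between the 2 AC3-/- libraries, and wild-type library b was 3.88-fold above its partner. The authors' deposited table gives AC3-/- and wild-type means of 503.4 and 1220, which lie 2.42-fold apart, and a shrunken fold change of -0.82 on the log2 scale (p = 0.0923, adjusted p = 0.940). By limma the difference was -0.99 on the log2 scale (standard error 0.68), with a 95% interval of -2.70 to 0.73 and an adjusted p of 0.932. It was -0.01 without wild-type library b and -1.96 without library a, the latter with an adjusted p of 0.00012 from limma that takes its spread from the AC3-/- pair alone.

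miR-138-5p had the same order of wild-type libraries. It had 257.9 and 187.5 normalised reads in AC3-/- and 177.5 and 709.8 in wild type, so that wild-type library b was 4.0-fold above library a and the other 3 libraries lay within a narrow range. The authors' deposited table gives a log2 fold change of -0.63 with p = 0.197, from means 1.99-fold apart. The limma estimate was -0.69 on the log2 scale (standard error 0.70), with a 95% interval of -2.44 to 1.06 and an adjusted p of 0.932. Without wild-type library b the sign of the estimate turned, to 0.31, and without wild-type library a the estimate was -1.69. Reads of the other arms came mainly from Mir138-2: miR-138-2-3p had 13, 12, 5 and 15 reads in AC3-/- a and b and wild-type a and b, and miR-138-1-3p 0, 0, 2 and 0.

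miR-153-3p, the intronic miRNA of Ptprn2, had 54.9 and 41.0 normalised reads in AC3-/- and 26.6 and 85.4 in wild type. The wild-type libraries enclosed both AC3-/- libraries and lay 3.21-fold apart. By limma the difference was -0.01 on the log2 scale, with a 95% interval of -1.56 to 1.54 and an adjusted p of 0.995. Leaving out wild-type library a gave -0.83 and leaving out library b 0.81, so the 2 wild-type libraries gave opposite signs.

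Thus 3 of the 8 members, miR-488-3p, miR-138-5p and miR-153-3p, differed by at least 2-fold from one wild-type library to the other, where 27% of the 448 miRNAs did. All 3 were higher in library b, as were 14.5% of the 448. Between the AC3-/- libraries 0 of 8 were 2-fold apart, against 6.25% of the 448, and the largest ratio was 1.39-fold, for miR-488-3p. The same 3 miRNAs were also higher in AC3-/- library a than in library b, by 1.39-fold, 1.38-fold and 1.34-fold, while miR-135b-5p and miR-135a-5p were lower there.

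**Figure D3:**
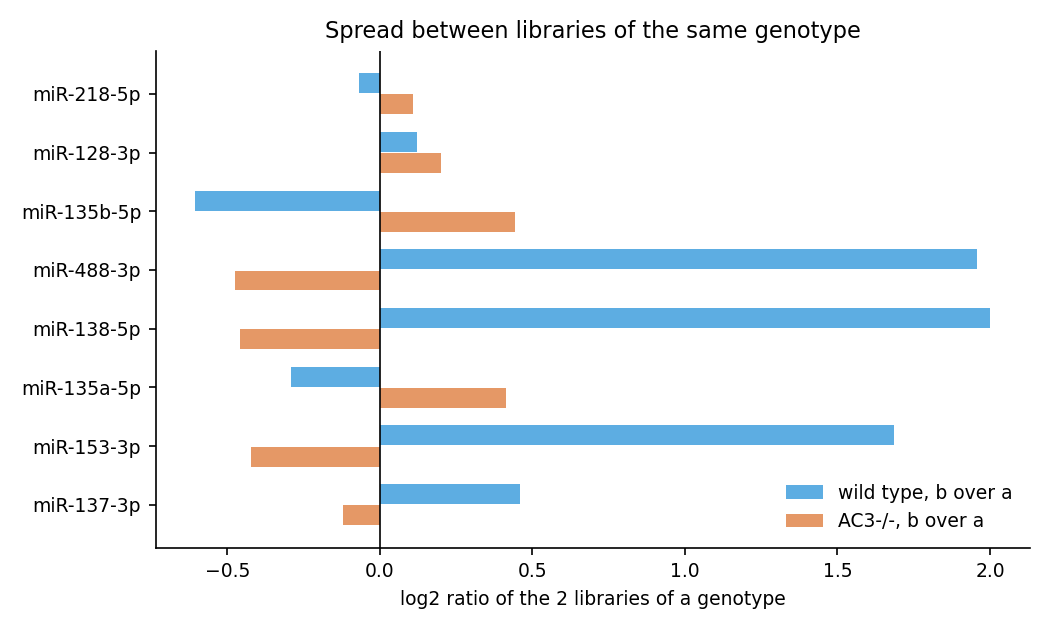
log2 ratio of library b over library a within wild type and within AC3-/-, for the 8 miRNAs with a mean of at least 10. The wild-type bars of miR-488-3p, miR-138-5p and miR-153-3p reach 1.96, 2.0 and 1.68, and those of miR-135b-5p and miR-135a-5p point the other way.

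The other arms give a second set of reads from the same precursors. The table holds 11 of the 14 other arms listed for these genes, 4 of them with a mean of at least 10. In the table the authors deposited, 0 of 11 reached an unadjusted p of 0.05, against 3.51% of all 1167 miRNAs. miR-488-5p had 5.23 and 0.910 normalised reads in AC3-/- and 2.13 and 10.5 in wild type (6, 1, 2 and 9 reads). miR-138-2-3p had 11.3 and 10.9 in AC3-/- and 5.31 and 17.5 in wild type. Like their guide arms, both were highest in wild-type library b, on few reads.

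miR-135b-3p had 33.97 and 57.3 normalised reads in AC3-/- and 60.6 and 16.4 in wild type (39, 63, 57 and 14 reads). Like miR-135b-5p it was lowest in wild-type library b, 3.70-fold below library a, where the guide arm was 1.52-fold below. miR-153-5p, with 2, 0, 1 and 1 reads, was too scarce to compare. miR-218-1-3p, from the Slit2 intron, had 6, 17, 3 and 6 reads.

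**Figure D4:**
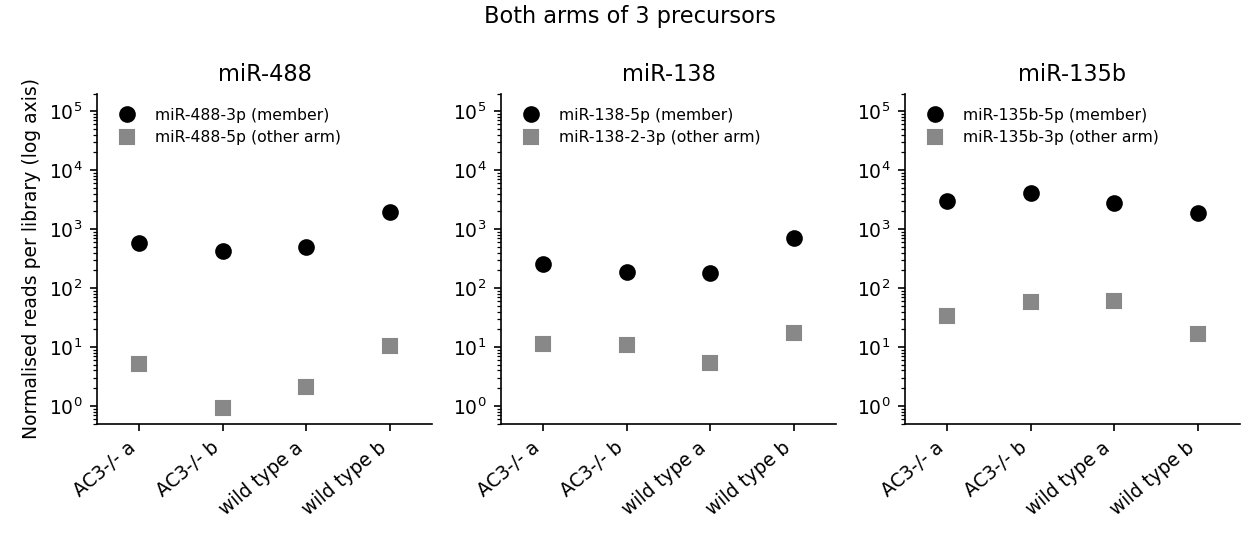
Normalised reads (log axis) of the guide arm (circles) and the other arm (squares) of miR-488, miR-138 and miR-135b in the 4 libraries, 1 point per library. Both arms of miR-488 and of miR-138 are highest, and both arms of miR-135b lowest, in wild-type library b.

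The 3 hairpins of miR-488-3p and miR-138-5p, both 2-fold or more higher in wild-type library b than in a, are shown with both arms in capitals, written 5′ to 3′, to show where the guide and the other arm sit:
Mir488: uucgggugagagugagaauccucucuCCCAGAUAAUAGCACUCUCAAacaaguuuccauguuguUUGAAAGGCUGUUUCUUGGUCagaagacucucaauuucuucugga
Mir138-1: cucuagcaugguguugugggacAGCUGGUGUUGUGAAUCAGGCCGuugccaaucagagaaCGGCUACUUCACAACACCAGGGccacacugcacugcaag
Mir138-2: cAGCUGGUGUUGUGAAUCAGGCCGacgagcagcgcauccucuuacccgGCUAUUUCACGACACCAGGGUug
miR-488-3p is the second of its hairpin's arms, and miR-138-5p the first of both of its hairpins.

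The guide arm held most reads of every precursor for which another arm is in the table. Its share of both arms, over the deposited means of 8 miRNAs, ran from 90.8% for miR-135a-5p in wild type to 100% for miR-137-3p in AC3-/-, where miR-137-5p had 0 reads. The wild-type share of miR-137-3p, 94.5%, rested on 2 reads of miR-137-5p in wild-type library b. The AC3-/- and wild-type shares were 99.9% and 99.96% for miR-218-5p and 99.4% and 99.5% for miR-488-3p. The median share was 99.1% in AC3-/- and 98.2% in wild type. By library the medians were 98.99% and 99.7% in AC3-/- and 98.6% and 98.9% in wild type. The difference of 0.839 percentage points between the medians from the deposited means had no test, and it moved to between 0.165 (without wild-type library a) and 1.54 (without AC3-/- library a) with 1 library left out.

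miR-137-3p, known for its part in neurogenesis, was scarce but even. It had 21.8 and 20.03 normalised reads in AC3-/- and 17.0 and 23.4 in wild type (25, 22, 16 and 20 reads), with the wild-type libraries enclosing both AC3-/- libraries. The limma estimate was 0.06 on the log2 scale, with a 95% interval of -1.03 to 1.16 and an adjusted p of 0.975, so differences of up to about 2-fold either way lie within the interval.

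miR-383-5p and miR-873a-5p fell under the mean of 10 and were not tested by limma. miR-383-5p had 11, 4, 3 and 3 reads in AC3-/- a and b and wild-type a and b. AC3-/- library a was the highest, and its exact 95% Poisson interval of 5.49 to 19.7 reads overlaps that of AC3-/- library b, 1.09 to 10.2. miR-873a-5p had 5, 7, 1 and 4 reads, with wild-type library a lowest. These intervals cover counting error only, as reads without molecular identifiers are not independent molecules. Their means in the authors' deposited table lay 1.97-fold and 1.87-fold apart, with p = 0.385 and p = 0.461.

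Summed over the 10 members, the libraries held 24480 and 27276 normalised reads in AC3-/- and 21716 and 22455 in wild type. miR-218-5p made up 63.9% of the AC3-/- sum and 61.5% of the wild-type sum. The log2 ratio of the sums was 0.23, and 0.13 without miR-218-5p. As a share of all normalised reads the members were at 0.296% in AC3-/- and 0.179% in wild type, a log2 ratio of 0.72. The normalised means of all rows sum to 8739148 for AC3-/- and 12320877 for wild type. Setting these totals equal adds 0.50 to every log2 ratio.

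Marker lists of other cells, and of the sensory epithelium that includes the olfactory sensory neurons, moved between the libraries alongside some members. The sensory epithelium list, the miR-183 cluster and the miR-200 family, had all 16 members in the table and library values for 8. Their sum was 24649 and 27571 normalised reads in AC3-/- and 23570 and 61504 in wild type. In the deposited means the 16 held 21.0% of all normalised reads in AC3-/- and 44.3% in wild type. All 7 with a mean of at least 10 and library values were 2-fold or more higher in wild-type library b than in a. Of the 448 miRNAs, 14.5% were, and miR-488-3p, miR-138-5p and miR-153-3p went in the same direction. The 4 glial miRNAs, miR-338 and miR-219 arms, summed to 708.2 and 552.5 in AC3-/- and 403.8 and 1199 in wild type, also highest in wild-type library b. All 4 were higher there than in wild-type library a, 2 of them 2-fold or more. The sum was mostly miR-338, with 736.7 (miR-338-3p) and 438.5 (miR-338-5p) in wild-type library b. These 2 and miR-219a-5p were highest in that library. miR-219a-2-3p was instead highest in AC3-/- library b, with 8.71 and 29.1 in AC3-/- and 5.31 and 8.19 in wild type.

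The multiciliated list, with arms of miR-34b, miR-34c and the miR-449 family, went the other way, with the direction of miR-135b-5p and miR-135a-5p. Its 8 miRNAs with library values, of 9 in the table, summed to 13869 and 26257 in AC3-/- and 30648 and 5976 in wild type. All 6 with a mean of at least 10 were 2-fold or more lower in wild-type library b than in a. Of the 448 miRNAs, 12.5% were that much lower there. The leukocyte list, with library values for 7 of 8, summed to 15818 and 20289 in AC3-/- and 18133 and 6400.2 in wild type, and 6 of 7 were 2-fold or more lower in library b. The 4 red blood cell miRNAs in the table summed to 6224 and 4759 in AC3-/- and 5773 and 3180 in wild type, and the 7 of striated muscle to 6596 and 4421 in AC3-/- and 6647 and 7132 in wild type. None of these lists had a miRNA with library values at 0 in all 4 libraries. The most abundant miRNAs of 3 lists had no single solution for their library values and are missing from the library sums: miR-200b-3p, miR-183-5p and others of the sensory epithelium, miR-34c-5p of multiciliated cells and miR-146a-5p of leukocytes. The sums therefore cover 1.42% of the sensory epithelium list's deposited AC3-/- mean and 0.779% of its wild-type mean. For the multiciliated list they cover 8.02% and 7.497%, and for the leukocyte list 8.23% and 10.4%. The part of the cells behind these lists in the members' values was not tested.

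**Figure D5:**
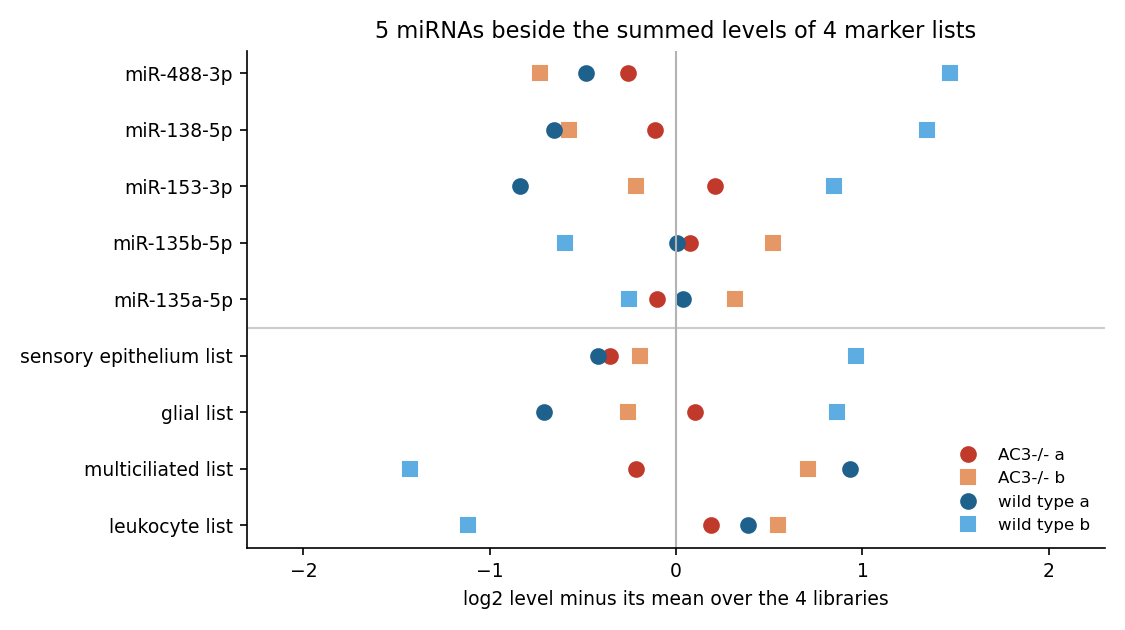
log2 level minus its mean over the 4 libraries, 1 point per library, for 5 miRNAs (above the line) and for the summed levels of 4 marker lists (below it). Wild-type library b lies highest for miR-488-3p, miR-138-5p, miR-153-3p and the sensory epithelium and glial lists, and lowest for miR-135b-5p, miR-135a-5p and the multiciliated and leukocyte lists.

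Among the other neuronal miRNAs, all 35 of a list that leaves out these 10 were in the table. There, the deposited log2 fold changes of 21 lay above 0 and of 14 below, where 49.5% of all miRNAs lay above 0. The median of the 35 was 0.10, against -0.01 over all 1167. 1 passed the adjusted p of 0.05, miR-124-3p, a miRNA abundant throughout the nervous system. Among the 23 that averaged 10 or more and could be split by library, 5 were 2-fold or more higher in wild-type library b than in a. Of the 23, 0 were 2-fold lower there. Of the 448 miRNAs, 14.5% were 2-fold or more higher and 12.5% 2-fold or more lower. miR-129-5p, a neuronal miRNA, was 11.1-fold higher in wild-type library b than in a, with 222.1 and 126.5 normalised reads in AC3-/- and 138.1 and 1538 in wild type. miR-9-3p, the lesser arm of a progenitor miRNA, had 3788 and 3161 in AC3-/- and 3424 and 6084 in wild type. Others did not share that order. miR-7a-5p, split in wild type only, had 24988.6 in library a and 13933.5 in b. miR-7b-5p had 1099 and 205.7 in AC3-/- and 102.0 and 106.4 in wild type. miR-1298-5p had 446.0 and 381.4 against 240.1 and 146.2, and miR-323-3p 21.8 and 12.7 against 4.25 and 2.34. At an unadjusted p of 0.05 in the authors' deposited table, 4 of the 35 were higher and 3 lower in AC3-/-. Of all 1167 miRNAs, 3.51% passed there in either direction. This list, like the others, was chosen with earlier results of these data known.

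By the root mean square difference of centred log2(value + 1) over the 4 libraries, each of the 6 members with a mean of at least 100 was compared with 246 other miRNAs of at least that mean. miR-324-5p was nearest to both miR-218-5p and miR-128-3p, at a difference of 0.05 on the log2 scale for each. miR-34a-5p was nearest to miR-135b-5p (0.07) and miR-361-5p to miR-135a-5p (0.06). miR-879-5p was nearest to miR-488-3p (0.19), with 65.3 and 48.2 normalised reads in AC3-/- and 73.3 and 291.2 in wild type. miR-335-5p was nearest to miR-138-5p (0.21), with 2126 and 1364 in AC3-/- and 1334 and 3914 in wild type. With 4 libraries many miRNAs share a pattern, and these likenesses are a description only.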

How the data were processed

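Per the labels' protocols, Trizol RNA was used, and libraries were built by ligating adaptors to both ends of small RNAs, PCR and gel selection by length. Per the submitters' processing notes, Bowtie, DESeq 1.8.3 and GRCm38 were used, in an unstated order. The sources used here give neither the miRBase release nor any filter. The authors deposited 1 comparison table. Its abundance columns, as deposited, hold a signal that the authors made by dividing read counts by a size factor per library and averaging the 2 libraries of a genotype, per the file headers and the pattern of values. The deposited log2 fold change (AC3-/- over wild type) was shrunken toward 0 by the authors, as the values show. Its median size was 86.1% of the unshrunken log2 ratio among miRNAs averaging 100 or more. The deposited p-value and adjusted p-value cover all 1167 rows.

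Each deposited mean, written to 10 significant digits, adds up whole reads of both libraries, each read worth 1 fixed step per library. Solving for the reads gave 1 solution for 1124 of 1167 rows (96.3%) in AC3-/- and 1131 (96.9%) in wild type, and both for 1123. Size factors were 1.148 and 1.099 in AC3-/- and 0.9411 and 0.8551 in wild type, and the library with the larger factor is called a. The solver and the limma fit were tested on simulated data. Library values on a log2(value + 1) scale were fitted in R 4.3.3 by limma 3.58.1 with an intensity trend, for the 448 miRNAs averaging 10 or more, with Benjamini-Hochberg adjustment over all tested. Adding 1 understates low miRNAs' changes.

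Samples were grouped by their titles. The members and lists were chosen with earlier results of these data known. The rule for naming took the 10 members, their other arms, members of the other neuronal and seed-related lists with an unadjusted p under 0.05, up to 4 most abundant miRNAs of each list, and the nearest miRNA in pattern to each member with a mean of at least 100. The text gives those its comparisons rest on. miR-448-3p was named for its seed after its values were seen.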

Additional observations from a re-analysis of the deposited data

How the results depend on the processing

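The count of members past an adjusted p of 0.05 was 0 in the authors' deposited table, 0 at an unadjusted p of 0.05 and 0 with p-values adjusted again over rows with a mean of at least 10. With limma it was 0 with a pseudocount of 0.5 or 5, no filter, a mean of at least 100, recomputed size factors, rescaled totals or no trend, and between 0 and 3 with 1 library left out. The 3 were miR-488-3p, miR-138-5p and miR-135b-5p without wild-type library a, a fit in which 14.9% of all 449 miRNAs passed, against 0% of 448 with all 4 libraries. Left out in turn, the libraries gave log2 differences from -1.69 to 0.31 for miR-138-5p, -0.83 to 0.81 for miR-153-3p, -0.16 to 0.28 for miR-137-3p, 0.0060 to 0.42 for miR-135a-5p and 0.083 to 0.29 for miR-128-3p. miR-153-3p also turned sign when scaled to equal totals, to 0.27 from the deposited means and 0.062 in limma. These are different scalings. The totals for limma cover only rows with library values and leave out many of the most abundant miRNAs. Scaling shifted the log2 differences by a median of 0.075 there, against 0.50 for the deposited means. The log2 ratio of the members' sums was 0.13 without miR-218-5p, 0.72 as a share of the total, and 0.15 to 0.30 with 1 library left out. The median guide share differed by 0.165 to 1.54 percentage points with 1 library left out, against 0.839 with all 4. Beyond these shifts the cause was not tested. miR-383-5p and miR-873a-5p had at most 11 reads in a library, the fewest of the members. No paired analysis was possible because the library values worked back from the means carry no replicate number.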
